A study of Mus musculus with 32 samples.

Results

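A set of 10 genes that mark bone marrow macrophages was followed through every library of a mouse RNA sequencing study of sorted stem cells and progenitors. These were C1qa, C1qb, C1qc, Cd5l, Slc40a1, Hmox1, Vcam1, Mrc1, Axl and Apoe, out of 33924 genes in the count table. They were chosen by name, with earlier results of these data known, so counts of calls among them are no independent support. Apoe was kept apart from the other 9 genes, because its level was higher in batch C than in batch A for every number the vehicle libraries share.

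All mice carried Jak2V617F, the activating mutation of the kinase JAK2 that drives myeloproliferative neoplasms. The mutation was switched on outside the body with Dre recombinase mRNA, and the cells were then transplanted into lethally irradiated recipients. Tamoxifen activates Cre, which deletes the mutant allele, and ruxolitinib inhibits the JAK2 kinase while leaving the allele in place. Cells were LSK, lineage-negative Sca1-positive Kit-positive stem and early progenitor cells, or MEP, the progenitors of megakaryocytes and red cells. Batch A held vehicle mice (day 0; 4 LSK and 3 MEP libraries), mice at day 3 of tamoxifen (3 LSK, 4 MEP) and mice at day 7 (4 LSK, 3 MEP). Batch C held vehicle mice (day 0; 2 LSK, 3 MEP) and mice given ruxolitinib for 7 days (3 LSK, 3 MEP). The labels give no animal ages and describe no tamoxifen-treated group without the deletable allele, so the deletion and the drug itself cannot be told apart. They do not say whether each library came from its own mouse, so p-values measure the spread between these samples, which may be partly technical. Host cells that outlive irradiation can include tissue macrophages, and counts per gene do not tell donor from host.

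Marrow macrophages sit at the centre of erythroblastic islands, where they hold maturing red cells, engulf the expelled nuclei and take up worn-out erythrocytes. They break down heme and send the iron back out of the cell. C1qa, C1qb and C1qc encode the 3 chains of C1q, the complement protein that coats dying cells for uptake and that macrophages make in large amounts.

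The C1q genes lie side by side on the minus strand of mouse chromosome 4 (mm10, chr4:136880129-136898803, a span of 18675 bases). The order of starts along the chromosome is C1qb, C1qc and C1qa. Slc40a1 lies at chr1:45908068-45926523 and Hmox1 at chr8:75093621-75100589. Cd5l lies at chr3:87357881-87371073 and Vcam1 at chr3:116109949-116129688. Mrc1 lies at chr2:14229392-14332057, Axl at chr7:25757273-25788705 and Apoe at chr7:19696109-19699188. All 10 are protein-coding genes, and these are their full spans of exons and introns in GENCODE M21.

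Promoter sequence was matched for 6 of the 10 genes in RefSeq (GRCm38.p6): C1qb, C1qc, Cd5l, Mrc1, Axl and Apoe. C1qa, Slc40a1, Hmox1 and Vcam1 had no entry. The 250 bases before the RefSeq start are printed for 4 genes from 3 chromosomes whose levels moved together in the LSK libraries. Axl moved with them too but is not printed. They are read 5′ to 3′ on the gene's strand. Capitals mark the core of the PU.1 ETS motif (GAGGAA, or TTCCTC on the other strand) and a palindrome (TGCTGA and TCAGCA with 1 or 2 bases between). PU.1 is a transcription factor that macrophages need.
C1qb: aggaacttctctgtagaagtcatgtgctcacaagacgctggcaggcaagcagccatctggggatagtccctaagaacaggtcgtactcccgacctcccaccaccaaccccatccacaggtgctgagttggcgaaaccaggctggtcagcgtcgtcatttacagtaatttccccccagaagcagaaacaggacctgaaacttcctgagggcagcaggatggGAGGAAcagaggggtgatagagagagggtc
C1qc: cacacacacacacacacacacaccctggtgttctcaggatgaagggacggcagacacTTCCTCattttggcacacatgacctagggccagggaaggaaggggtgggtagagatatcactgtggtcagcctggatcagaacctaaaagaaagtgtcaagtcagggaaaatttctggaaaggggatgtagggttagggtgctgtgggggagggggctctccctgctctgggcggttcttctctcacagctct
Cd5l: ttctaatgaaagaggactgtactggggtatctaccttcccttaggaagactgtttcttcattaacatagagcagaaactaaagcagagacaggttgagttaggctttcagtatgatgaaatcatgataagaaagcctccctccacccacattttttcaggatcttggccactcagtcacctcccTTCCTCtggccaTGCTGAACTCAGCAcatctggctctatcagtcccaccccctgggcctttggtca
Mrc1: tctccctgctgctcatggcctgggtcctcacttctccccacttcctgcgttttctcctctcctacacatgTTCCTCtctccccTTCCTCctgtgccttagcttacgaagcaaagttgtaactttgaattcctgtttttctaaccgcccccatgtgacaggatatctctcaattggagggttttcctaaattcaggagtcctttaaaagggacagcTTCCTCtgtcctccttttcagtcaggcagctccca

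The C1qb window is chr4:136886201-136886450 and the C1qc window chr4:136892915-136893164, both on the minus strand. The Cd5l window is chr3:87357631-87357880 and the Mrc1 window chr2:14229164-14229413, both on the plus strand. The C1qc and Mrc1 windows reach into the GENCODE spans given above, as they are placed by the RefSeq start. Each of the 4 windows held the GAGGAA core on one strand or the other, once in C1qb, C1qc and Cd5l and 3 times in Mrc1. Over all promoters of the same length, 7639 of 32851 (23.3%) held it, so a match is common. The Cd5l window held the palindrome as well, beginning 54 bases before the start, with 2 bases between its arms and an ETS core at 66 bases that does not overlap it. This palindrome occurred in 4 of the 32851 windows (0.0122%), while the single arm TGCTGA on either strand occurred in 16.1%. A match describes the letters and does not show that a factor binds there.

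Library totals ran from 11160696 to 28838622 counts in batch A and from 26511752 to 55473241 counts in batch C. Levels are given as CPM, counts scaled to the library total, and log2 fold changes come from edgeR fits with TMM factors. Jak2 lay between 12 and 38.2 CPM in all 10 groups, and the table does not separate its alleles. Ly6a, the gene of the Sca1 antigen in the LSK gate, was at 19 to 172 CPM in the 16 LSK libraries and at no more than 1.65 CPM in the 16 MEP libraries. The summed erythroid list (27 genes) was at 2071 to 7125 CPM in LSK and at 19260 to 27040 CPM in MEP. In bulk RNA, more macrophages in a sort and more of these transcripts per macrophage cannot be told apart.

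**Figure D1:**
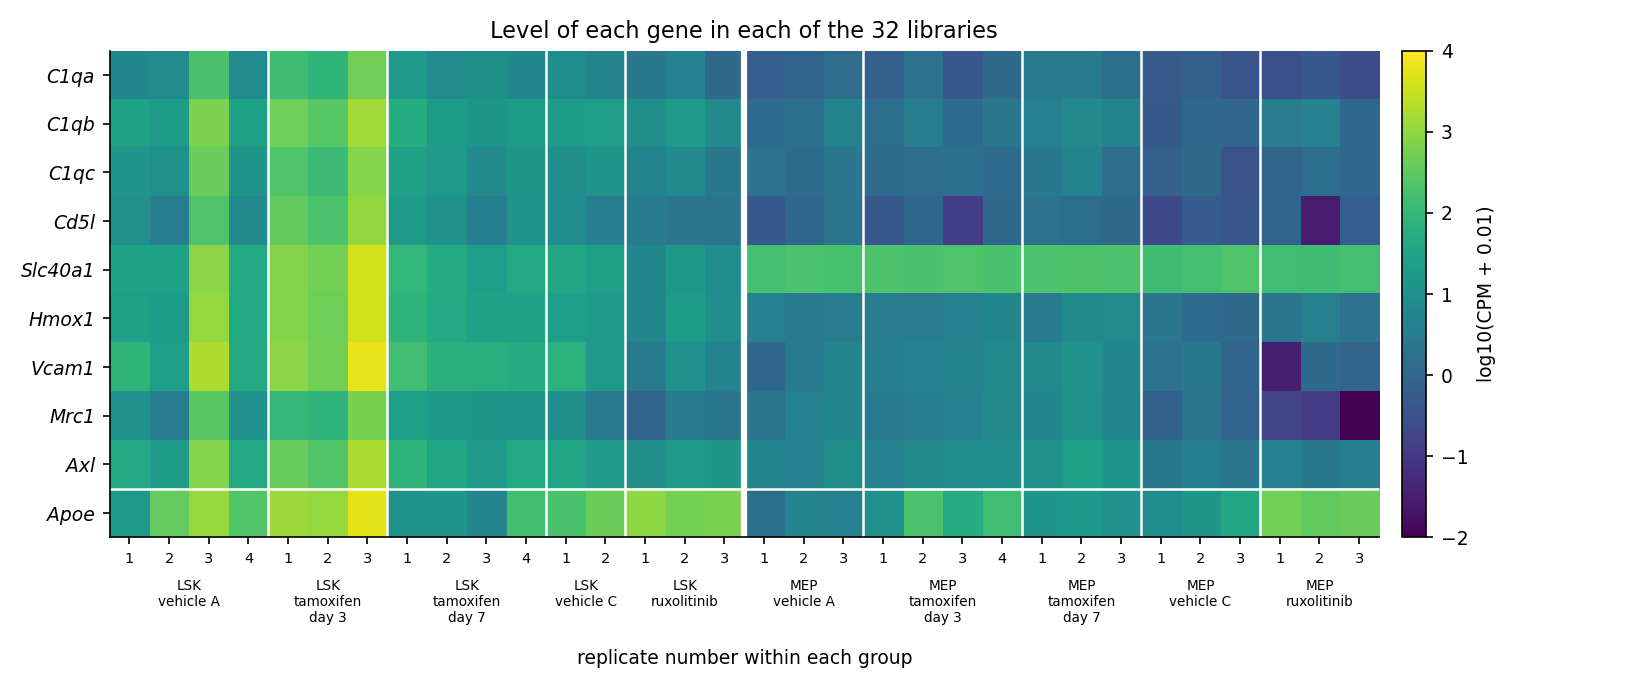
Level of the 10 genes (rows) in all 32 libraries (columns, grouped by cell type and treatment), coloured by log10 of CPM with 0.01 added. LSK vehicle A replicate 3 and the 3 LSK tamoxifen day 3 libraries are the brightest columns, and Slc40a1 is bright in all 16 MEP libraries.

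The macrophage genes were concentrated in 4 of the 16 LSK libraries, all 3 from tamoxifen day 3 and 1 of the 4 from vehicle A. In these 4 libraries C1qb was above 270 CPM, and in the other 12 it was below 52 CPM. At day 3 the group means were 3.26 (Mrc1) to 9.01 (Cd5l) times those of vehicle A, but for every gene the groups overlapped. The 3 remaining vehicle libraries held 9 genes at low levels, and the fourth, replicate 3, reached the day 3 range in all of them.

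C1qb was at 29.6, 19.6, 672 and 26.7 CPM in vehicle A replicates 1 to 4 and at 487, 271 and 1476 CPM at day 3. It was at 51.9, 20.3, 15 and 19.2 CPM at day 7. Day 3 lay above every day 7 library, while vehicle A replicate 3 lay inside the day 3 range. C1qa ran from 6.34 to 190.3 CPM in vehicle A, 84.9 to 487 CPM at day 3 and 6.34 to 16.9 CPM at day 7. C1qc ran from 10.3 to 418 CPM, 129.5 to 797 CPM and 7.42 to 27.2 CPM in the same groups. The 3 chains kept similar proportions in those 4 libraries, with C1qb at 52.5% to 57.7% of summed C1q counts. Together they were 1281 CPM in vehicle A replicate 3 and 844, 486 and 2760 CPM at day 3.

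The genes of iron and heme handling followed the same libraries. Slc40a1, which encodes ferroportin, the only known cellular iron exporter, was at 30, 26.7, 907 and 43 CPM in vehicle A and at 769, 550.4 and 3836 CPM at day 3. Hmox1, which encodes the inducible heme oxygenase that opens the heme ring, was at 25.8, 20.8, 1095 and 46.5 CPM in vehicle A and at 759, 465 and 3852 CPM at day 3. Vehicle A replicate 3 was again inside the day 3 range for both, and replicates 1, 2 and 4 were far below it.

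Cd5l encodes a scavenger protein secreted by macrophages. It was at 10.3, 3.68, 217 and 7.62 CPM in vehicle A and at 342, 199.6 and 1073 CPM at day 3. The overlap here was narrow, since only day 3 replicate 2 lay below vehicle A replicate 3. Vcam1, the adhesion molecule through which island macrophages hold erythroblasts, was at 83.8, 23.1, 1854 and 43.2 CPM in vehicle A. At day 3 it was at 885, 541 and 5876 CPM, so replicates 1 and 2 of day 3 were below vehicle A replicate 3. Mrc1, the mannose receptor, ran from 3.4 to 291 CPM in vehicle A and from 79.5 to 597 CPM at day 3. Axl, a receptor kinase that recognises dying cells through its ligand GAS6, ran from 21.1 to 757 CPM and from 238 to 1726 CPM. Vehicle A replicate 3 held the highest vehicle value for both receptors. In day 3 replicate 3 the 9 genes summed to 1.97% of all counts, against 0.64% in vehicle A replicate 3 and 0.0137% to 0.0255% in the other 3 vehicle A libraries.

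With all 4 vehicle A libraries, edgeR's quasi-likelihood F test called 0 of the 9 genes at day 3 against vehicle A in LSK. It called 0% of the 26930 genes tested, with 1019 at an unadjusted p under 0.05, and DESeq2 called 93 genes and none of the 9. The log2 fold changes of the 9 genes were all positive, from 1.66 to 3.15 with a median of 2.11 beside -0.02 over all genes, and 5 of the 9 had an unadjusted p under 0.05. Cd5l gave the largest value, 3.15 ± 0.953 (SE, adjusted p = 0.62). The spread within vehicle A was as large as the difference between the groups.

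Leaving out vehicle A replicate 3 changed this result. That library was singled out by its high values of these same genes, so calls without it are no independent support for a rise. Against the 3 remaining vehicle A libraries all 9 genes passed edgeR's test at day 3, beside 0.328% of all genes tested (88 of 26870). Their log2 fold changes ran from 4.25 (Axl) to 6.03 (Cd5l), with a median of 4.7. Cd5l was at 6.03 ± 0.63 (adjusted p = 0.00056), Hmox1 at 5.51 ± 0.712 (adjusted p = 0.0017) and Slc40a1 at 5.41 ± 0.676 (adjusted p = 0.0017). Vcam1 had the widest error, 5.36 ± 0.83 (adjusted p = 0.0052). Without that library the day 3 values of each of the 9 genes lay above all vehicle A values. This separation rests on leaving out the library with the highest vehicle A value of each gene. The share of all genes that separate in this way was not counted. Leaving out any other LSK library of the comparison gave 0 of 9.

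**Figure D2:**
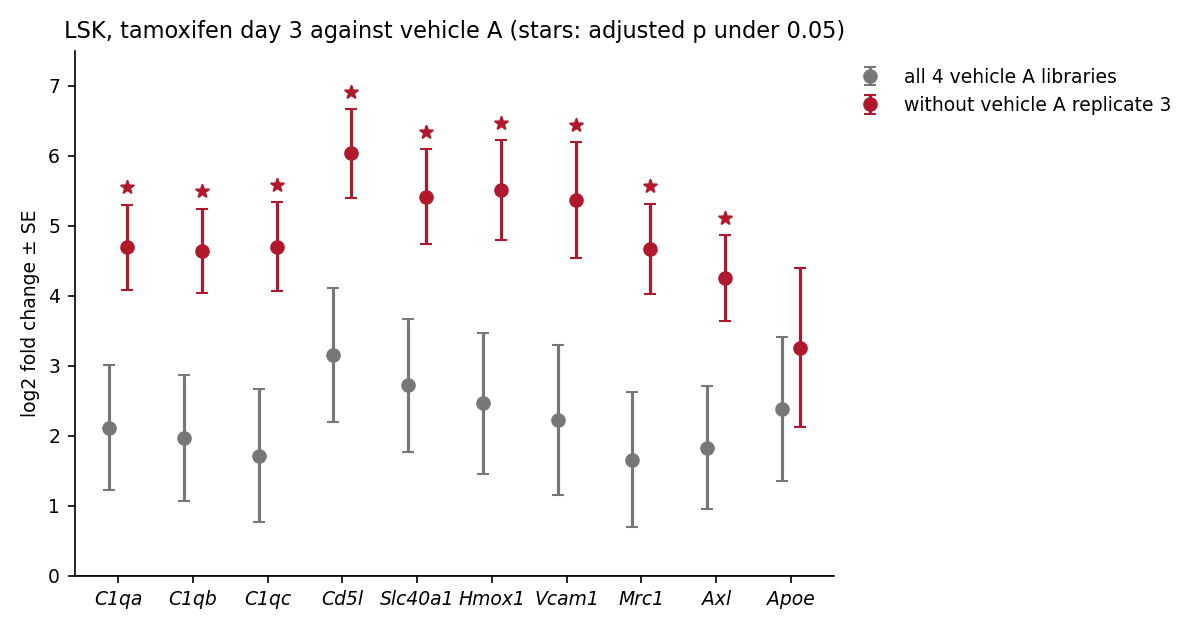
Log2 fold change with its standard error (vertical axis) of each gene in LSK at tamoxifen day 3 against vehicle A, with all 4 vehicle A libraries in grey and without replicate 3 in red. Stars mark an adjusted p under 0.05, which all 9 genes other than Apoe reach only without that library. Replicate 3 was singled out by its high values of these same 9 genes.

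A wider list of 35 other marrow macrophage markers gave the same pattern by library. Their summed level in LSK vehicle A was 573, 562, 3935 and 681 CPM, and at day 3 it was 2314, 1599 and 9178 CPM. In the other 9 LSK libraries it was 341 to 818 CPM. Fcna, a ficolin, was at 14.1, 8.46, 577 and 16.3 CPM in vehicle A and at 414, 257 and 1554 CPM at day 3. Spic, the transcription factor of iron-recycling macrophages, was at 12.9, 9.15, 240.2 and 17.8 CPM in vehicle A and at 80.3, 70.3 and 475 CPM at day 3. Timd4, a receptor for phosphatidylserine, did not follow them, at no more than 9.02 CPM in any LSK library. Marco, Vsig4 and Folr2 were also low, each under 17 CPM in every LSK library.

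Of these 35 genes edgeR called 0 at day 3 with all libraries (median log2 1.51). Without vehicle A replicate 3 it called 16 higher and 0 lower (median 2.86 beside -0.05 over all genes). Replicate 3 was also the vehicle A library highest in this list, so these calls are no independent support either. Among the largest without that library were Clec4n, a C-type lectin receptor (5.91 ± 0.749, adjusted p = 0.0017), Fcna (5.61 ± 0.821, adjusted p = 0.0034) and Fcgr1, the high-affinity IgG receptor (5.14 ± 0.697, adjusted p = 0.002). Among 24 heme and iron genes 2 were called higher without it, Slc11a1 (4.95), the iron transporter of phagosomes, and Lrp1 (2.86), a scavenger receptor. Among 20 genes of apoptotic cell uptake the one called was Mertk (3.37), a kinase of the Axl family. Of 18 cholesterol efflux and lipoprotein genes 4 were called higher, Nr1h3 (3.38), Pltp (3.36), Lpl (3.26) and Lrp1. Of 20 tested complement genes 2 were higher, Cfp (2.88), which encodes properdin, and Lrp1.

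Markers of other cells were read in the same libraries, and some moved with the macrophage genes. The summed erythroid list (27 genes) was at 2257, 2616, 6054 and 4879 CPM in LSK vehicle A, 7125, 4953 and 4408 CPM at day 3 and 2071 to 2620 CPM at day 7. Its 5 highest LSK libraries were thus the 4 rich in macrophage genes and vehicle A replicate 4. The stroma and endothelium list was highest in day 3 replicate 3 (767 CPM) and vehicle A replicate 3 (613 CPM) and at no more than 351 CPM in every other LSK library. Without vehicle A replicate 3, edgeR called 0 erythroid genes at day 3 and 1 stromal gene, Lpl.

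The summed monocyte and neutrophil list (22 genes) ran differently, at 1984, 4325, 2491 and 3137 CPM in vehicle A, 4203, 8232 and 6076 CPM at day 3 and 9973 to 18050 CPM at day 7. Vehicle A replicate 3 was among the lower libraries for that list, and day 7 was above day 3. Without replicate 3, S100a8 and S100a9, which encode the calgranulins, were the 2 of its 22 genes called higher at day 3 (2.73 and 3.18). The lymphocyte and plasma cell list was highest in vehicle A replicate 4, at 14450 CPM, of which the antibody light chain gene Igkc gave 8899 CPM. It was next highest in vehicle A replicate 3 (4065 CPM) and lowest of all 16 LSK libraries in the 3 day 3 libraries (513, 832 and 481 CPM). Without replicate 3, 2 of its 16 genes were called lower at day 3, Igj (-6.85), the joining chain of antibodies, and Ighm (-2.81), the heavy chain of IgM. Ly6a was at 101, 146, 67.9 and 172 CPM in vehicle A and at 48.9, 23.8 and 19 CPM at day 3, so replicate 3 was also the lowest of vehicle A. It was the one stem and progenitor gene called at day 3 without replicate 3 (-2.32 ± 0.44, adjusted p = 0.025), in the lower direction. The part of these other cells in the macrophage values was not tested.

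**Figure D3:**
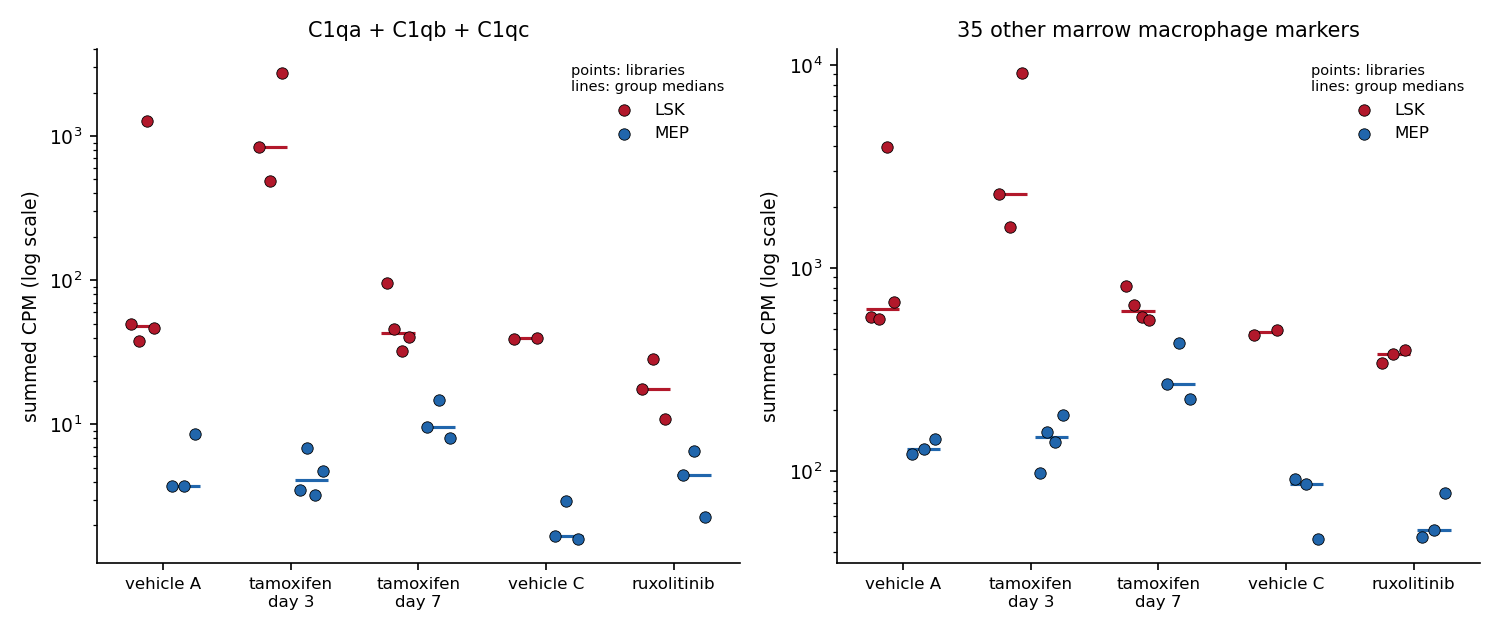
Summed CPM (log axis) of C1qa, C1qb and C1qc (left) and of 35 other marrow macrophage markers (right) in each library, with LSK in red, MEP in blue and lines at group medians. LSK vehicle A replicate 3 stands with the day 3 libraries in both panels, and no MEP library reaches the LSK day 3 level.

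At day 7 of tamoxifen the LSK libraries lay near the level of the 3 low vehicle A libraries. The 9 genes summed to 535, 269, 177 and 235 CPM, beside 255, 137, 6402 and 240.2 CPM in vehicle A. Replicate 1 was the highest of the 4 for each of the 9 genes, at 145 CPM for Vcam1 beside 52 to 64.5 CPM in the others. edgeR called 0 of 9, beside 0.104% of all genes tested, although all 9 had an unadjusted p under 0.05. DESeq2 called none of the 9 either. The log2 fold changes ran from -2.73 (C1qb, adjusted p = 0.24) to -2.15 (Mrc1, adjusted p = 0.48). Without vehicle A replicate 3 they lay between -0.02 (C1qb) and 0.91 (Mrc1), and none passed. The day 3 and day 7 comparisons share the vehicle A libraries.

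Under ruxolitinib the 9 genes were low in all 3 LSK libraries. They summed to 45.3, 98 and 52.1 CPM, beside 222 and 123 CPM in vehicle C, so the groups did not overlap. Vcam1 was at 2.96, 12.1 and 4.71 CPM under ruxolitinib and at 69.1 and 17.1 CPM in vehicle C. In 7 genes every ruxolitinib value was below both vehicle values, and Hmox1 and Mrc1 overlapped. The share of all genes that separate in this way was not counted. With library totals, the scaling of CPM, the median log2 difference of all genes was -0.481. Hmox1 was at 5.8, 19.6 and 8.53 CPM beside 23.2 and 18.1 CPM. edgeR called 0 of 9, beside 0.0223% of all genes, with none at an unadjusted p under 0.05, and DESeq2 called none. The log2 fold changes were all negative, from -2.35 ± 1.27 (SE) for Vcam1 to -0.6 ± 1.04 for Axl. The 35 other macrophage markers also had 0 called (median -0.97 beside -0.25 over all genes).

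The vehicle libraries of the 2 batches carry shared numbers in the labels, 12 and 18 in LSK and 12, 32 and 33 in MEP. In LSK the 9 genes differed little within a number, with batch C at 0.67 to 1.3 times batch A. For number 12, Vcam1 was at 83.8 CPM in batch A and 69.1 CPM in batch C, and for number 18 at 23.1 and 17.1 CPM. Number 12 was above number 18 in both batches for Vcam1, Cd5l, Slc40a1, Hmox1, Mrc1 and Axl. For C1qa, C1qb and C1qc the order of the numbers differed between the batches. Vehicle A replicate 3 is number 14 and has no batch C library. edgeR called 0 of 9 genes between the vehicle batches in LSK, beside 0.772% of all genes (208), with 8 of 9 at an unadjusted p under 0.05, and DESeq2 called none. With the shared number as a block it also called 0 of 9, beside 334 genes in all. The log2 values of -3.33 to -2.49 moved to between -0.29 and 0.23 without vehicle A replicate 3.

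MEP libraries held little of 8 of the 9 genes. The C1q chains summed to 1.59 to 14.7 CPM over the 16 MEP libraries, from 58 to 361 counts in each. Without Slc40a1, the other 8 genes summed to 16.7, 19.3 and 35.4 CPM in vehicle A and to 18.4, 26.4, 24.7 and 34.2 CPM at day 3. They summed to 39.4, 71.6 and 42.9 CPM at day 7, 9.42, 13.4 and 7.26 CPM in vehicle C and 12.1, 14.5 and 9.48 CPM under ruxolitinib. Day 7 was the highest MEP group, above every vehicle A library. With the same scaling to library totals, the median log2 difference of all genes at MEP day 7 was 0.726, against 0.206 with TMM factors. The 35 other markers summed to 122 to 145 CPM in vehicle A and 227 to 430 CPM at day 7, but edgeR called 1 of the 34 tested, Sepp1, a selenium carrier (1.39 ± 0.301, adjusted p = 0.0029), with a median of 0.58. The monocyte and neutrophil list summed to 50.9 to 62.4 CPM and 166 to 277 CPM, and the stem and progenitor list to 522 to 887 CPM and 1921 to 2069 CPM. Of their genes 5 of 22 were called higher, and 9 of 20 higher with 1 lower. Their part in the macrophage values was not tested.

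At day 3 the MEP libraries stayed low where LSK libraries of the same number were high. For number 25 at day 3 the C1q chains were at 844 CPM in LSK and 6.89 CPM in MEP, and for number 29 at 486 and 3.21 CPM. The LSK to MEP ratio within these numbers was 122 and 151, beside 13.4 for number 12 in vehicle A, 23.2 for number 12 in vehicle C and 3.13 to 10 for the 3 shared numbers at day 7. The labels do not say that a shared number is one mouse. LSK vehicle A replicate 3 (number 14) and LSK day 3 replicate 3 (number 6) have no MEP library here.

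edgeR called 0 of 9 genes in MEP at day 3 against vehicle A, beside 1.21% of all genes, with none at an unadjusted p under 0.05 and none by DESeq2. The log2 fold changes ran from -0.87 (Cd5l) to 0.75 (Vcam1). At day 7 it called 0 of 9, beside 8.42%, with 1 at an unadjusted p under 0.05. Axl, the gene with the unadjusted p under 0.05, was at 0.88 ± 0.363 with edgeR (adjusted p = 0.17) and 1.01 with DESeq2 (adjusted p = 0.014). Axl was at 5.36, 4.15 and 9.73 CPM in vehicle A and at 12.2, 24.4 and 14.2 CPM at day 7, so the groups did not overlap. C1qa, Slc40a1 and Vcam1 at day 7 also lay above every vehicle A value. On this scale of library totals the median log2 difference of all genes was 0.726, and the share of all genes that separate was not counted. Between the MEP vehicle batches edgeR called 0 of 9, beside 3.52% of all genes, with 1 at an unadjusted p under 0.05. DESeq2 called 1, Mrc1 (-1.52, adjusted p = 0.021). C1qa, C1qb, C1qc, Cd5l, Hmox1, Mrc1 and Axl were nevertheless at lower CPM in batch C within each of the 3 shared numbers, at 0.136 to 0.945 times batch A. Number 33 had the lowest ratio for each of these 7 genes, 0.136 to 0.356. C1qb, C1qc, Hmox1, Mrc1 and Axl did not overlap between the vehicle groups. With library totals, the scaling of CPM, the median log2 difference of all genes between these batches was -0.629, against -0.274 with TMM factors. The lower CPM of these genes thus stands beside a shift of the whole table, and the share of all genes that separate was not counted.

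The test of whether the LSK and MEP responses to tamoxifen differed called 0 of 9 genes at day 3, beside 0.0529% of all genes, with 2 of 9 at an unadjusted p under 0.05. DESeq2 called none. Without LSK vehicle A replicate 3, singled out by its high values of these same genes, it called all 9, beside 0.191% of all genes. The MEP response minus the LSK response then ran from -4.08 ± 0.606 (Axl, adjusted p = 0.00041) to -6.89 ± 0.899 (Cd5l, adjusted p = 1e-04). At day 7 the differences were positive, from 1.8 (Slc40a1) to 3.4 (Vcam1), and 0 of 9 were called, beside 0.458%, with 7 of 9 at an unadjusted p under 0.05. DESeq2 called 2 of these, Axl and C1qa. Without vehicle A replicate 3 the day 7 differences ran from -0.96 to 0.58. For ruxolitinib 0 of 9 were called, beside 0.292% of all genes, with 1 at an unadjusted p under 0.05 and none by DESeq2.

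Comparing the cell types within a treatment gave the most calls. In vehicle A 8 of the 9 genes were lower in MEP than in LSK, beside 17.4% of all genes called, with log2 values from -3.77 (Mrc1) to -6.87 (Vcam1). Slc40a1 was the exception, at 0.04 ± 0.706. Without LSK vehicle A replicate 3, 7 genes were lower and Slc40a1 was higher (2.8 ± 0.476, adjusted p = 5.2e-05), beside 15.2% of all genes. Mrc1 was no longer called (-0.66, adjusted p = 0.54).

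At day 3 all 9 genes were lower in MEP, beside 15% of all genes called. Cd5l differed most, -9.05 ± 1.08 (adjusted p = 1.6e-07), followed by Vcam1, -8.2 ± 1.12 (adjusted p = 1.7e-06). Slc40a1 differed least, -2.37 ± 0.716 (adjusted p = 0.02), and was no longer called without LSK day 3 replicate 3 (-1.36, adjusted p = 0.37) or without MEP day 3 replicate 2 or 4 (adjusted p = 0.052 and 0.053). In vehicle C 7 genes were lower in MEP and Slc40a1 was higher (3.01 ± 0.961, adjusted p = 0.026), beside 16.6%. Leaving out 1 vehicle C library left 2 to 6 of these 8 calls.

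At day 7 Cd5l, Hmox1 and Vcam1 were lower in MEP, 3 of 9, beside 6.24% of all genes. Fitting the day 7 libraries alone, without the spread of the other groups, called all 9 genes: 8 lower and Slc40a1 higher. Leaving out LSK replicate 1 or any MEP replicate left 0 calls in the fit of all libraries. Under ruxolitinib C1qa, Vcam1 and Mrc1 were lower in MEP and Slc40a1 was higher (4.55 ± 0.877, adjusted p = 0.00015), beside 42.5% of all genes. The median of the 9 genes was -1.48 there, beside -1.16 over all genes. Of all genes 8581 were called lower and 3492 higher, so these calls stand beside a shift of the whole table. The fit of the ruxolitinib libraries alone called 8 of 9. Of the 35 other macrophage markers, 27, 29 and 6 were lower in MEP in vehicle A, at day 3 and at day 7. In vehicle C 14 were lower and under ruxolitinib 22, and none was higher in any group. Their median under ruxolitinib was -2.53 beside -1.16 over all genes.

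Slc40a1 was the one gene of the 9 with a steady level of its own in MEP. It was at 161, 195.5 and 179 CPM in vehicle A, 216, 189, 225 and 189 CPM at day 3 and 199.1, 208 and 200.5 CPM at day 7. It was at 137, 158 and 218 CPM in vehicle C and 148, 139.5 and 165 CPM under ruxolitinib. Ferroportin is also made by erythroid precursors, which export iron. The MEP values spanned 137 to 225 CPM over all 5 treatments, while in LSK the gene ran from 6.2 to 3836 CPM. edgeR called no treatment difference for it in MEP, with log2 values of 0.19 at day 3, -0.3 at day 7 and 0.02 under ruxolitinib. The sign of the day 7 value depended on the scaling, as it was -0.3 with TMM factors and 0.18 with library totals.

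**Figure D4:**
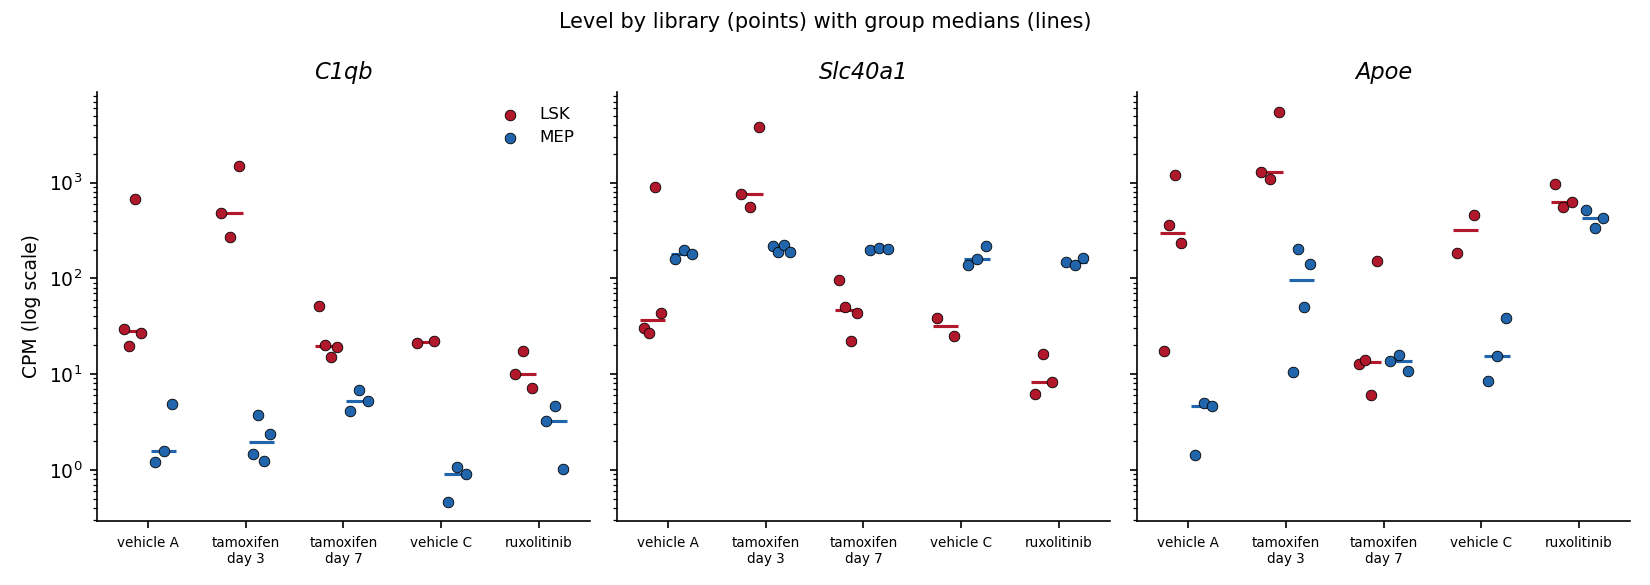
CPM (log axis) of C1qb, Slc40a1 and Apoe in each library, with LSK in red, MEP in blue and lines at group medians. C1qb is low in MEP throughout, Slc40a1 stays between 137 and 225 CPM in MEP, and Apoe is at 337 to 521 CPM in MEP under ruxolitinib.

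Ruxolitinib was the only treatment for which edgeR called any of the 9 genes in MEP, 2 of 9, beside 42% of all genes. C1qb was at 3.22, 4.65 and 1.02 CPM under ruxolitinib and at 0.465, 1.06 and 0.908 CPM in vehicle C, so replicate 3 lay inside the vehicle range. Its log2 fold change was 2.17 ± 0.613 (adjusted p = 0.0072), and without ruxolitinib replicate 2 it was 1.63 (adjusted p = 0.051). C1qa and C1qc were not called, at -0.4 ± 0.604 and 0.88 ± 0.533. C1qb made up 72.9% and 71.5% of the C1q counts in ruxolitinib replicates 1 and 2, above its share in every other library (27.6% to 65.9%).

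Mrc1 fell in MEP under ruxolitinib by 3.28 on the log2 scale (SE 0.679, adjusted p = 0.00083). It was at 0.669, 2.02 and 0.857 CPM in vehicle C, from 23, 72 and 34 counts, and at 0.174, 0.108 and 0 CPM under ruxolitinib, from 8, 6 and 0 counts. A count of 0 in replicate 3 allows a level of up to 0.0745 CPM (3 counts, for counting error only). Hmox1 was higher by 1.07 ± 0.473 and did not pass with edgeR (adjusted p = 0.071), but passed with DESeq2 (1.18, adjusted p = 0.013). Of 34 tested macrophage markers 1 was higher and 14 were lower, with a median of -1.22 beside -1.07 over all genes. The largest falls were Folr2, a folate receptor (-5.28 ± 0.762), Dnase1l3, a secreted DNase (-4.04 ± 0.672), Mertk (-3.75 ± 0.629) and Marco, a scavenger receptor (-3.59 ± 0.902). As the median gene also fell by over 1 on the log2 scale, the 14 falls stand beside a shift of the whole table.

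The levels of the 9 genes tracked the C1q sum across LSK libraries. Pearson's r of log2(CPM + 0.5) with the C1q sum over the 16 LSK libraries was 0.989 for Hmox1, 0.988 for Slc40a1, 0.98 for Axl, 0.977 for Cd5l, 0.958 for Vcam1 and 0.95 for Mrc1. Over the 16 MEP libraries it was 0.816 for Axl, 0.701 for Hmox1, 0.636 for Cd5l, 0.606 for Mrc1, 0.595 for Vcam1 and 0.205 for Slc40a1. These are descriptions over libraries that share depth, batch and treatment, and the 4 high libraries set most of the LSK values. Among 22781 genes with a mean of at least 0.5 CPM, the 8 most like the C1q sum in both cell types were Emr1, Clec4a3, A630033H20Rik, Apoc1, Ccl6, Gm14976, Gm15178 and Sirpa. Emr1, the gene of the macrophage surface antigen used in cell sorting, had r of 0.918 in LSK and 0.846 in MEP. It ran from 0.694 to 197 CPM in LSK and reached 9.95 CPM in MEP. With a minimum mean of 2 CPM, Emr1, Clec4a3, Ccl6 and Sirpa led again and Clec4b1, Bank1, Spic and Tlr4 followed.

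Within a library the mix of the genes was not constant. Cd5l counts were 0.405, 0.411 and 0.389 per C1q count at LSK day 3, and 0.207, 0.0969, 0.17 and 0.162 in vehicle A. No other LSK library exceeded 0.317, so vehicle A replicate 3, alike in C1q, held less Cd5l for its C1q than the day 3 libraries. Mrc1 per C1q count was 0.119, 0.164 and 0.216 at day 3 beside 0.227 in vehicle A replicate 3. Vcam1 per C1q count was 1.05, 1.11 and 2.13 at day 3, beside 1.45 in that library. Under ruxolitinib Vcam1 was at 0.169, 0.425 and 0.436 per C1q count, beside 1.77 and 0.428 in vehicle C. These ratios compare genes within a library. They were singled out after their values were seen and were not tested.

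**Figure D5:**
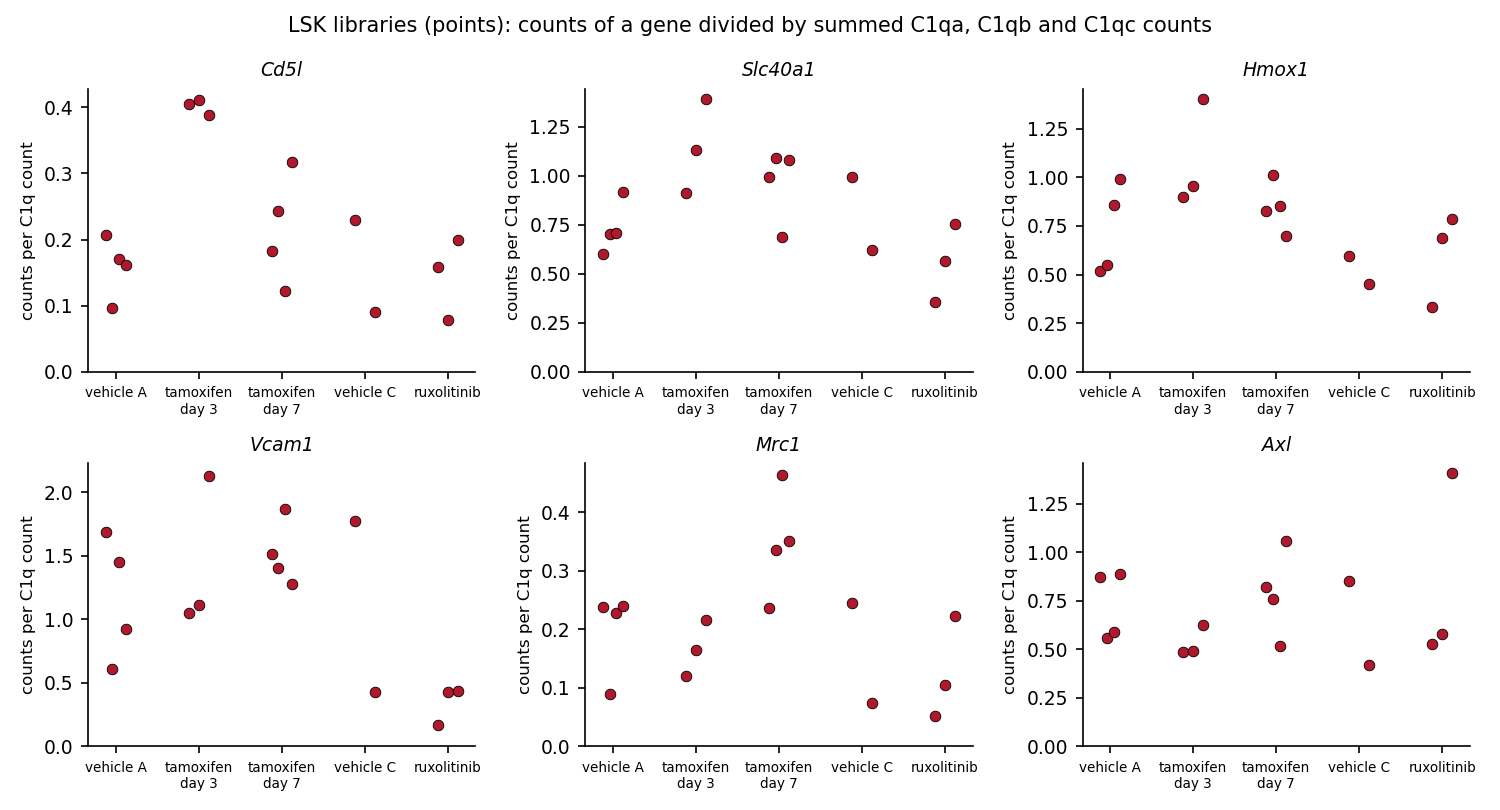
Counts of 6 genes divided by the summed C1qa, C1qb and C1qc counts of the same LSK library (vertical axes, each starting at 0), by treatment group. Cd5l lies at 0.389 to 0.411 in the 3 day 3 libraries and at or below 0.317 in every other library.

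Levels of different genes can be compared per kilobase of exon. At LSK day 3 the mean levels were 1240 CPM per kb for Apoe (SD 1170, n = 3), 966 for Hmox1 (SD 1070), 684 for C1qb (SD 591), 274 for Vcam1 (SD 337) and 264 for Cd5l (SD 230). C1qa was at 227, C1qc at 198, Slc40a1 at 191, Axl at 157 and Mrc1 at 40.6 CPM per kb, and no neighbours in this order differed beyond their spread. In MEP vehicle A Slc40a1 led at 19.8 CPM per kb (SD 1.94, n = 3), and the next, C1qb, was at 2.33 (SD 1.83), a gap larger than either spread. All other genes there were at 2.01 CPM per kb or less.

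Apoe encodes apolipoprotein E, the lipid carrier that macrophages secrete, and it is also made by other cells. In LSK it was at 17.6, 360.5, 1196 and 235 CPM in vehicle A, 1295, 1095 and 5539 CPM at day 3 and 12.8, 14, 6.09 and 150.5 CPM at day 7. It was at 184 and 455 CPM in vehicle C and at 963, 558 and 631 CPM under ruxolitinib. Unlike the other 9 genes it was high under ruxolitinib and in vehicle A replicate 2, where C1q was low. Its Pearson r with the C1q sum was 0.473 in LSK and -0.06 in MEP. The lowest LSK ratio of Apoe to C1q counts was 0.134 and the highest 58.3.

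In LSK edgeR called no treatment difference for Apoe. Its log2 fold change was 2.38 ± 1.03 at day 3 (adjusted p = 1), -3.4 ± 1.04 at day 7 (adjusted p = 0.22) and 1.31 ± 1.27 under ruxolitinib (adjusted p = 0.72). Without vehicle A replicate 3 the day 3 value was 3.26 ± 1.13 and still not called (adjusted p = 0.54). Day 7 passed without day 7 replicate 4 (-5.41, adjusted p = 0.004).

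In MEP Apoe was called in 2 of the 3 treatment comparisons. It was at 1.43, 4.94 and 4.67 CPM in vehicle A and at 10.5, 203, 50.7 and 143 CPM at day 3, a difference of 4.74 ± 0.686 (adjusted p = 0.00032). At day 7 it was at 13.6, 15.9 and 10.8 CPM (1.39 ± 0.632, adjusted p = 0.23), and it passed when vehicle A and day 7 were fitted alone (1.46, adjusted p = 0.0069). Under ruxolitinib it was at 521, 337 and 430 CPM, beside 8.49, 15.4 and 38.9 CPM in vehicle C (4.55 ± 0.679, adjusted p = 9.6e-05). Each treated group lay above its vehicle group, but the share of all genes that separate in this way was not counted. edgeR called 1.21% of all genes at day 3, 8.42% at day 7 and 42% under ruxolitinib. With library totals, the scaling of CPM, the median log2 difference of all genes was 0.029, 0.726 and -1.31 in these comparisons. The 4 MEP day 3 libraries spread over a wide range, and number 25 held the most in MEP (203 CPM).

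The vehicle batches bear on Apoe directly. For number 12 it was at 17.6 CPM in batch A and 184 CPM in batch C in LSK, 10.5 times higher, and for number 18 it was 1.26 times higher. In MEP batch C was 5.95, 3.11 and 8.32 times higher for numbers 12, 32 and 33. edgeR called this MEP difference (2.93 ± 0.651, adjusted p = 0.014), with no treatment between the libraries. Apoe was set apart from the other genes for this same shift, so the call is no independent support for it. Without MEP vehicle A replicate 1 or 3, or vehicle C replicate 3, the difference no longer passed (adjusted p = 0.054, 0.065 and 0.095). Both treatment comparisons called in MEP were within a batch. Apoe was lower in MEP than in LSK in vehicle A (-6.59 ± 1.2), at day 3 (-4.13 ± 0.955) and in vehicle C (-3.42 ± 1.09), and was not called at day 7 or under ruxolitinib (-0.11 ± 0.946, adjusted p = 0.94). The vehicle C call was lost without LSK vehicle C replicate 2 (-2.25, adjusted p = 0.27) or MEP vehicle C replicate 1 or 2 (adjusted p = 0.11 and 0.095).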

How the data were processed

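Gene counts of 32 RNA sequencing libraries, 16 LSK and 16 MEP, were analysed. Cells were sorted into TriZOL, per the labels' protocols, and the authors deposited unnormalized counts for each gene symbol, made with STAR and featureCounts on mm10 per the submitters' processing notes. No source used here gives tool versions, annotation or strand setting. Groups came from titles and characteristics. Totals were 11160696 to 55473241 counts, so low genes are more precise in the deeper batch C.

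CPM used library totals. Tests were edgeR 4.0.16 quasi-likelihood F tests (R 4.3.3, TMM factors, genes kept by filterByExpr with min.count 10, Benjamini-Hochberg adjustment over all genes tested at 0.05), fitted on the 16 libraries of a cell type or, between cell types, on all 32. All 10 genes passed the filter. Alternatives were RLE factors, library totals, DESeq2 1.42.0, no filter, compared groups alone, a replicate block and each replicate left out. Named genes were the 10, up to 4 largest called genes per list and comparison, and the 8 most like the C1q sum. The genes and lists were chosen with earlier results of these data known, so their counts are no independent support. The fitting functions were tested on simulated data. Vehicle libraries with the same number in batches A and C deviated together (correlations of 0.531 and 0.645 in LSK and 0.115 to 0.605 in MEP), and blocking by it changed no call for the 9 genes between vehicle batches. Some genes of the lists are not reported here.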

Additional observations from a re-analysis of the deposited data

Results flagged for a closer look

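In each of the 30 sets of 4 libraries (10 genes in 3 groups), a library was singled out when its gap to the nearest other as a share of the range exceeded Dixon's 95% critical value. Chance alone singles out about 1 in 20 sets, and 13 were found. The genes share libraries, so these are not 13 separate events.

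LSK vehicle A replicate 3 was the highest of its group for 9 genes, at 190.3 CPM for C1qa, 672.3 for C1qb, 418.4 for C1qc, 217.4 for Cd5l, 906.7 for Slc40a1, 1095 for Hmox1, 1854 for Vcam1, 290.9 for Mrc1 and 757.3 for Axl. LSK tamoxifen day 7 replicate 1 was the highest of its group for C1qb at 51.89 CPM, Vcam1 at 145.2 CPM and Mrc1 at 22.63 CPM. LSK tamoxifen day 7 replicate 4 was the highest of its group for Apoe at 150.5 CPM.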

How the results depend on the processing

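No called value of any of the 10 genes took the opposite sign under any alternative run. Of 2175 values of single genes under an alternative, 2034 stayed on their side of the threshold, 73 passed newly and 68 no longer passed. In 67, none past the threshold, the sign changed, 18 of them without LSK vehicle A replicate 3. With library totals in place of TMM factors, the median of all genes moved from 0.206 to 0.726 at MEP day 7 and from -1.07 to -1.31 in MEP under ruxolitinib, and the share of called genes that were higher at MEP day 7 moved from 16.4% to 57.1%. Library totals gave 1 of 9 genes at MEP day 7, where DESeq2 also gave 1, and 0 of 9 for MEP against LSK at day 7. DESeq2 gave 1 between the MEP vehicle batches, 6 for MEP against LSK at day 7 and 2 for the difference between the cell types at day 7. The compared groups alone gave 9 for MEP against LSK at day 7 and 8 under ruxolitinib. Title numbers gave no steady pairing of treated and vehicle libraries, with correlations of -0.358 to 0.38. Libraries that correlated best with their own number ran from 0 of 6 at MEP day 7 to 4 of 6 in MEP under ruxolitinib. Whether these numbers pair libraries is thus not settled. With the title number as a replicate block, which sets LSK vehicle A replicate 3 beside day 3 replicate 3, 9 of 9 genes passed at LSK day 3 and 1 in LSK under ruxolitinib, and all calls at LSK day 3 went from 0 to 210, though 4 of 6 libraries correlated best with their own number. Apoe also passed at LSK day 3 with that block (2.92, adjusted p = 6.29e-05). With the label number as a block between cell types, 8 passed at day 7 and 9 under ruxolitinib. In vehicle A only number 12 has both cell types, so that block rests there on 1 LSK and 1 MEP library. Calls from it in vehicle A and for the difference at day 3 are therefore not given. The block gave -2.84 for Apoe in vehicle A, where number 12 held the lowest LSK level (17.6 CPM). Leaving out 1 replicate gave 0 to 9 of 9 genes at LSK day 3 and for the difference between cell types at day 3, 1 to 3 in MEP under ruxolitinib, and, for MEP against LSK, 0 to 4 at day 7, 1 to 4 with ruxolitinib and 2 to 6 for vehicle C, with the other comparisons within 1.5 times. Most causes were not tested; leaving out a library and blocking use fewer samples. In MEP, where single genes often rest on fewer than 100 counts per library, small differences were not detectable at this depth.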
